A study of Homo sapiens with 5 samples.

Results

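The genes described here are the protein-coding genes of chromosome 8 that lie between *MTSS1* and the telomere of the long arm, in a human leukemia cell line in which *MTSS1* was cut by Cas9. They were chosen by position: a gene belonged if its start on GRCh38 was above position 124728473, the end of *MTSS1* on that assembly, and *MYC*, *SQLE*, *PTK2*, *HSF1*, *EEF1D*, *BOP1*, and *RPL8* were left out. GENCODE release 44 lists 129 such genes, of which 103 were in the count table and 74 had enough counts to be tested, among 14391 tested genes of 27328 in all. The question was whether the level of these genes was shifted together in any pool of clones, and the other 285 tested protein-coding genes of chromosome 8 served as reference. The tested genes had mean levels of 1.30 to 406 CPM, the share of a library's counts scaled to its size,, with a median of 26.2.

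The cells were TF-1, an acute myeloid leukemia line, transduced with a lentivirus that carries Cas9, GFP, and an sgRNA. RNA was measured in 2 sgCtrl pools, whose sgRNA targets *renilla luciferase*, and in 3 sgMTSS1 knockout pools, numbered 1 to 3 after the sgRNA each carries. Every pool mixed 4 single-cell clones, and loss of the protein in the knockout clones was judged by immunoblot. All cells, the sgCtrl cells included, therefore carried Cas9, and a replicate is a pool of clones, so that p-values measure the spread between such pools. The study made another sgCtrl pool and a pool with a further sgRNA. It excluded both after an outlier test on principal components, and they were not analysed here. The p-values therefore rest on the pools that were kept, whose spread may be smaller than that of all pools made.

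Cas9 cuts both strands of DNA, and an end that is not rejoined can leave the part of the chromosome arm beyond the cut without a centromere. Such a part can be lost or gained when the cell divides, and loss or gain of a copy changes the level of many genes along it in the same direction, whatever those genes do. The distal end of the long arm of chromosome 8 is gene-rich toward the telomere and holds genes of unrelated function, among them zinc finger factors, splicing and transcription proteins, mitochondrial enzymes, and the LY6/uPAR surface proteins.

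Each sgRNA matched chromosome 8 once, next to an NGG motif. The sgRNA of pool 1 matched chr8:124727872-124727891, at the edge of exon 1 of *MTSS1* with 8 of its 20 bases in the exon. That of pool 2 matched chr8:124727918-124727937, within exon 1. That of pool 3 matched chr8:124589614-124589633, with 14 of 20 bases in exon 5. All matches were on the minus strand, the strand of *MTSS1* (chr8:124550784-124728473), and every gene described here lies on the telomeric side of all 3.

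Libraries were made from the 3′ ends of transcripts and held 2849979 and 3408827 counts in the sgCtrl pools and 5442639 to 8854899 in the knockout pools, so that the 2 groups also differed in depth, which cannot be told apart from the condition. A level of 3 counts corresponded to 0.389 to 0.938 CPM, a floor for counting error alone, because no molecular identifiers are described for these reads and PCR copies may be among them. *MTSS1* itself was at 204 and 87.9 CPM in sgCtrl and at 104, 139, and 49.9 CPM in the knockout pools, with a log2-fold change of −0.58 (SE 0.47, Benjamini-Hochberg adjusted p = 0.494, quasi-likelihood test of edgeR), so that mRNA alone did not separate the groups. *NDUFB9*, a subunit of respiratory complex I that overlaps *MTSS1* on the opposite strand, was at 326 and 211 CPM in sgCtrl and at 803, 574, and 622 CPM in the knockout (log2-fold change 1.31, SE 0.35, Benjamini-Hochberg adjusted p = 0.0631 in the same test), and both genes served only as reference point. All 8 markers of TF-1 progenitors were at or above 1 CPM in every pool, and the 3 granulocyte and monocyte markers in the table lay between 0 and 1.25 CPM.

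Between the 3 knockout and the 2 sgCtrl pools, 5 of the 74 distal genes differed, 3 higher and 2 lower in the knockout. *NDRG1*, *CYRIB*, and *ZNF16* rose, and *GLI4* and *PARP10* fell. A gene was called where the adjusted p was under 0.05 and the log2-fold change above 1 or below −1, in the quasi-likelihood test of edgeR adjusted over all tested genes by the Benjamini-Hochberg method. These calls came to 6.76% of the distal genes, against 5.18% of all tested genes. For higher genes the share was 4.05% against 4.17%, and for lower genes 2.70% against 1.01%. At an unadjusted p under 0.05 there were 22 distal genes, or 29.7%, against 23.3% of all tested genes. The count of 5 depended on single pools. Without knockout pool 1, edgeR called 0 of 73 distal genes (17 at an unadjusted p under 0.05), where it called 0.831% of all genes. Without pool 2 or pool 3 it called *NDRG1* alone, 1.37% of the distal genes against 2.59% and 1.44% of all. Without sgCtrl pool 1 it called 8 of 77, or 10.4%, against 8.73% of all, and of the 5 genes named here only *NDRG1* and *CYRIB* were among them.

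Over the 74 genes, the log2-fold change had a median of −0.11, with an interquartile range of −0.69 to 0.50, and 35 genes were above and 39 below 0. The same median was −0.08 for the rest of chromosome 8 and −0.02 for all protein-coding genes. Every knockout pool was above both sgCtrl pools for 11 distal genes (14.9%, against 22.2% of all tested genes) and below both for 15 (20.3%, against 19.2%). Genes of either kind, and genes whose groups overlapped, occurred both near *MTSS1* and far from it, but not evenly. Of the 12 distal genes within 10 Mb of *MTSS1*, 5 were above, 2 were below, and 5 overlapped. A transcript GC content of 60% or more was found in 2 of the 11 genes above, 11 of the 15 below, and 32 of the 48 that overlapped.

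**Figure D1:**
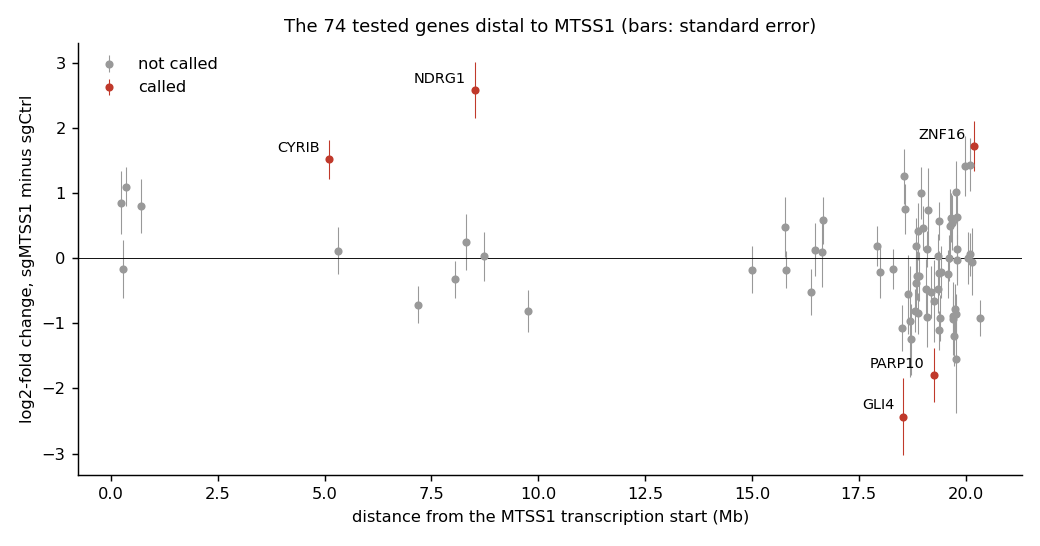
Log2-fold change of each of the 74 tested distal genes (y axis, sgMTSS1 minus sgCtrl, with its standard error as a bar) against its distance from the transcription start of *MTSS1* in Mb (x axis), with the 5 called genes in red. Genes above and below 0 occur at all distances, and most genes lie beyond 18 Mb.

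*NDRG1*, a protein induced by hypoxia and other stress, was at 6.25 and 3.58 CPM in the sgCtrl pools and at 25.3, 25.3, and 38.3 CPM in the knockout pools. The groups did not overlap, and the log2-fold change was 2.59 (SE 0.43, Benjamini-Hochberg adjusted p = 0.0142, quasi-likelihood test of edgeR). *NDRG1* lies at chr8:133237175-133302022 and overlaps another annotated gene on its own strand. *CYRIB*, which binds RAC1 and restrains branched actin assembly, was at 98.5 and 114 CPM in sgCtrl and at 285, 297, and 336 CPM in the knockout. Each knockout pool was thus well above both sgCtrl pools, by a log2-fold change of 1.53 (SE 0.30, adjusted p = 0.0239 in the same test). *ZNF16*, a zinc finger factor near the telomere at chr8:144930358-144950888 that overlaps no other annotated gene, was at 4.69 and 7.75 CPM in sgCtrl and at 21.3, 19.9, and 20.9 CPM in the knockout. The knockout pools lay close together and above sgCtrl, with a log2-fold change of 1.73 (SE 0.38, adjusted p = 0.0343 in the same test).

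*GLI4*, a zinc finger protein related to the GLI factors, was at 11.6 and 7.75 CPM in sgCtrl and at 0.649, 2.89, and 1.91 CPM in the knockout. All knockout pools were below both sgCtrl pools and knockout pool 1 was lowest, at few counts, for a log2-fold change of −2.43 (SE 0.59, Benjamini-Hochberg adjusted p = 0.0463, quasi-likelihood test of edgeR). *PARP10*, an enzyme that attaches single ADP-ribose units to proteins, was at 10.9 and 8.94 CPM in sgCtrl and at 2.72, 2.89, and 2.96 CPM in the knockout. The 3 knockout pools were nearly equal and below both sgCtrl pools, with a log2-fold change of −1.79 (SE 0.41, adjusted p = 0.0400 in the same test). *PARP10* spans *GRINA* on the opposite strand, the strand setting of the counting is not given in the sources used here, and the call was lost in 8 of 13 alternative analyses. Of all 74 genes, 53 overlap another annotated gene. Among the other 21, *ZNF16* was the only gene called.

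The 5 tested genes nearest to the cuts, not counting those left out by the rule, all lie within 10 Mb of *MTSS1*. None of them was called lower in the knockout. *ZNF572*, a zinc finger protein and the first tested gene beyond *MTSS1*, was at 2.50 and 6.56 CPM in sgCtrl and at 8.82, 7.40, and 8.53 CPM in the knockout. *WASHC5*, a subunit of the WASH complex that nucleates actin on endosomes, was at 21.9 and 7.45 CPM and at 13.1, 13.9, and 12.2 CPM, within the range set by the sgCtrl pools. *NSMCE2*, a SUMO ligase of the SMC5/6 complex, was at 28.8 and 27.1 CPM in sgCtrl and at 65.0, 52.5, and 62.5 CPM in the knockout. Its log2-fold change was 1.10 (SE 0.30), and it missed the threshold (Benjamini-Hochberg adjusted p = 0.0628, quasi-likelihood test of edgeR). *TRIB1*, a pseudokinase that brings substrates to a ubiquitin ligase, was at 5.94 and 4.47 CPM in sgCtrl and at 9.21, 7.22, and 10.8 CPM in the knockout (log2-fold change 0.80, SE 0.42, adjusted p = 0.285 in the same test). With *CYRIB* next among the genes kept, 4 of these 5 had all knockout pools above both sgCtrl pools. Over all tested genes this share was 22.2%. In none of the 5 was a knockout pool below both sgCtrl pools.

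At the other end, next to the telomere, the 5 last genes differed among themselves. *ZNF7*, a zinc finger protein, was at 13.4 and 16.1 CPM in sgCtrl and at 13.6, 16.6, and 16.2 CPM in the knockout, with overlapping groups. *COMMD5*, a member of the COMMD family that shares a stretch of the chromosome with *ZNF7*, was at 12.5 and 6.56 CPM against 29.6, 19.5, and 28.5 CPM (log2-fold change 1.44, SE 0.41, Benjamini-Hochberg adjusted p = 0.0713, quasi-likelihood test of edgeR). *ZNF250*, also a zinc finger protein, was at 4.06 and 2.38 CPM against 3.11, 3.25, and 2.96 CPM. Here too the groups overlapped. *ZNF16*, given above, lies next, and the last gene, *C8orf33*, was at 273 and 215 CPM in sgCtrl and at 126, 127, and 135 CPM in the knockout (log2-fold change −0.91, SE 0.28, adjusted p = 0.0898 in the same test). Among neighbours at the telomere, *COMMD5* and *ZNF16* were thus higher in every knockout pool and *C8orf33* was lower in every knockout pool. In *ZNF7* and *ZNF250* the groups overlapped.

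The most abundant distal genes, in which counting error is least, gave no common direction. *LY6E*, a GPI-anchored surface protein, was at 172 and 106 CPM in sgCtrl and at 134, 117, and 121 CPM in the knockout. *AGO2*, the Argonaute protein that cuts RNA in RNA interference, was at 154 and 129 CPM against 107, 129, and 141 CPM. *PHF20L1*, a reader of methylated lysine, was at 170 and 131 CPM against 110, 118, and 133 CPM. The log2-fold changes of these 3 genes were −0.16 (SE 0.31), −0.17 (SE 0.29), and −0.32 (SE 0.28), and their groups overlapped. *PUF60*, a splicing factor, was at 134 and 166 CPM against 161, 159, and 177 CPM. *TOP1MT*, the topoisomerase of mitochondrial DNA, was at 75.0 and 139 CPM against 137, 163, and 245 CPM. *RECQL4*, a DNA helicase, was at 48.2 and 119 CPM against 91.6, 198, and 218 CPM. In *TOP1MT* and *RECQL4* sgCtrl pool 1 was the lowest of the 5 pools and knockout pool 1 the lowest of the knockout pools, and their log2-fold changes of 0.76 (SE 0.38) and 1.02 (SE 0.48) did not pass the test. *CYC1*, the cytochrome c1 of respiratory complex III, was at 173 and 142 CPM against 248, 209, and 246 CPM. Here the groups were apart, with a log2-fold change of 0.57 (SE 0.29, Benjamini-Hochberg adjusted p = 0.277, quasi-likelihood test of edgeR). *GRINA*, a membrane protein of the TMBIM family, was at 129 and 909 CPM in sgCtrl and at 238, 408, and 346 CPM in the knockout, so that the sgCtrl pools were farther apart than the groups. Its direction depended on which sgCtrl pool was kept, with a log2-fold change of 1.38 without pool 2 and −1.45 without pool 1. *ZC3H3*, which takes part in polyadenylation and export of mRNA and is less abundant, had 1 of the 3 largest decreases among genes whose groups were apart, at 5.94 and 11.0 CPM against 1.69, 4.51, and 4.70 CPM (log2-fold change −1.24, SE 0.55, adjusted p = 0.208 in the same test).

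**Figure D2:**
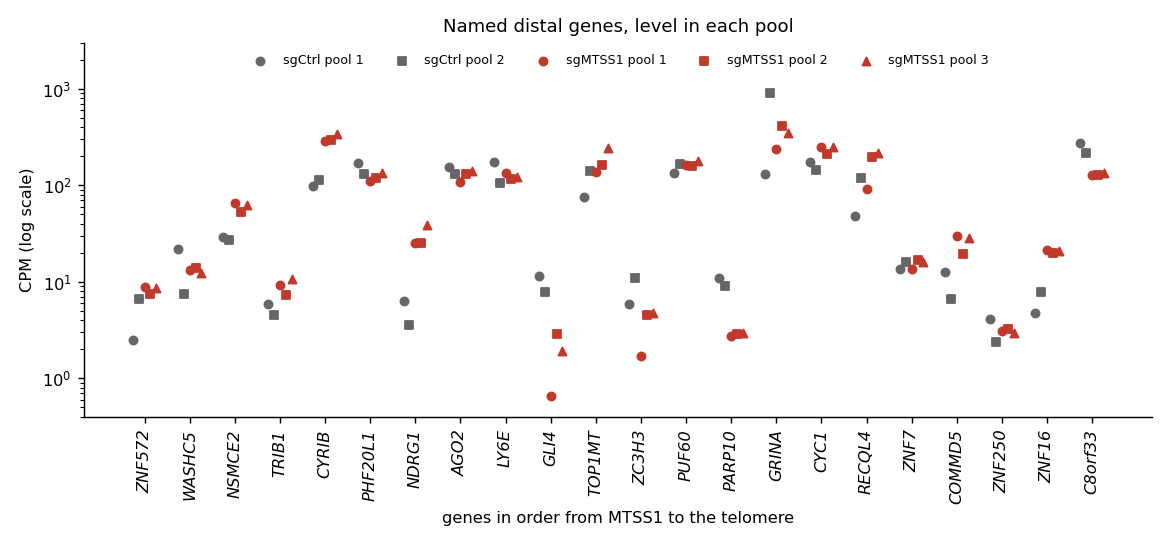
CPM (log scale, y axis) of the 22 named distal genes in each of the 5 pools, with genes in order from *MTSS1* to the telomere (x axis), sgCtrl pools in gray and sgMTSS1 pools in red. Neighbouring genes have their red symbols above, within, or below the range of the gray ones, as *NDRG1* (above), *AGO2* (overlapping), and *GLI4* (below) show.

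By function, each list held at most 1 gene called higher and 1 called lower. Over all tested genes, 23.3% had an unadjusted p under 0.05 in the quasi-likelihood test. All knockout pools were above both sgCtrl pools in 22.2% of them and below both in 19.2%. The lists are small, and their counts were not tested against these shares. Of 14 tested zinc finger and other DNA-binding factors, 1 rose (*ZNF16*) and 1 fell (*GLI4*), 7 had an unadjusted p under 0.05, the median log2-fold change was 0.03, and all knockout pools were above sgCtrl in 5 and below in 3. Of 8 tested RNA-processing, transcription, and chromatin genes, edgeR called 0, with 3 at an unadjusted p under 0.05 and a median of −0.25. The 3 of these that were below sgCtrl in all knockout pools were *ZC3H3*, *MAF1*, a repressor of RNA polymerase III (log2-fold change −1.11, adjusted p = 0.0631 with Benjamini-Hochberg adjustment), and *HGH1*, a chaperone of a translation elongation factor. *MAF1* and *HGH1* were named after their values were seen.

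The 4 DNA replication and repair genes had a median of 0.75 and the 11 mitochondrial and metabolic genes a median of 0.01, each with 0 calls by edgeR and 1 gene at an unadjusted p under 0.05. Among 12 genes of membrane traffic, cytoskeleton, and polarity, *CYRIB* rose, 2 genes had an unadjusted p under 0.05, and the median was −0.33. Among 7 listed under ubiquitin, kinase, and phosphatase signalling, *NDRG1* rose, as the only gene with an unadjusted p under 0.05, and the median was 0.25. *NDRG1* is not itself a ubiquitin enzyme, kinase, or phosphatase, so its rise does not describe that class. Of the 2 innate immune effectors *PARP10* fell, and *GSDMD*, which forms pores in pyroptosis, had a log2-fold change of −0.80 (Benjamini-Hochberg adjusted p = 0.183, quasi-likelihood test of edgeR). Both were below sgCtrl in every knockout pool with an unadjusted p under 0.05, at a median of −1.30. Of 12 genes of the LY6/uPAR family 4 were in the table, and *LY6E* alone was tested. The 15 tested genes in no list had a median of −0.03, with 0 calls by edgeR and 5 at an unadjusted p under 0.05. These medians stand beside −0.03 for all tested genes, and the counts beside the shares of all tested genes given above.

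Since each knockout pool carried its own sgRNA and its own clones, a change of dose need not be shared by pools, and each pool was also set against the others. With 1 pool on a side these fits have little power, and among the knockout pools they called 0 of all 14391 genes, so that a count of 0 says nothing about the distal genes. Between sgCtrl pools 1 and 2, edgeR called 0 of 74 (background 0.361%), and 13 had an unadjusted p under 0.05 (17.6%, against 16.8% of all tested genes). *GRINA* was closest to the threshold there, at a log2-fold change of −2.81 for pool 1 against pool 2 (adjusted p = 0.0516 with Benjamini-Hochberg adjustment). For knockout pools 1, 2, and 3, each against the other knockout pools, edgeR called 0 of 74 (background 0.0% in each), and 2, 0, and 1 had an unadjusted p under 0.05, against 4.59%, 1.48%, and 0.778% of all tested genes. Each such fit takes the lone pool to vary like the other pools.

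The distal genes of each pool were therefore described through their median. For each gene, the log2 CPM of a pool was compared with the mean of the other 4 pools, and the median over the distal genes was set against that over the rest of chromosome 8. The distal genes were lower in sgMTSS1 pool 1, with a median of −0.36 (interquartile range −0.77 to 0.07) and 50 of 74 genes below 0, while the rest of chromosome 8 was at 0.07, a shift of −0.42. In sgMTSS1 pool 2 the medians were 0.06 and −0.01, a shift of 0.07. In sgMTSS1 pool 3 they were 0.20 and −0.06, a shift of 0.26, with 50 of 74 genes above 0. The sgCtrl pools, which were not cut at *MTSS1*, shifted by −0.24 in pool 1 and 0.28 in pool 2. These shifts depended on the reference. Against the autosomal genes outside chromosome 8 they were −0.063 and 0.14, and against the other genes of the long arm −0.39 and 0.43. The same shifts were −0.35 and −0.52 in sgMTSS1 pool 1, 0.023 and 0.079 in pool 2, and 0.17 and 0.33 in pool 3. Set against the other knockout pools only, a comparison chosen after the data were seen, sgMTSS1 pools 1 to 3 shifted by −0.40, 0.11, and 0.33. Relative to the rest of chromosome 8, the SD of the shift between pools of a group was 0.357, pooled over both groups. The shift of −0.42 in sgMTSS1 pool 1 was slightly larger than this SD, and the other 4 shifts were smaller. This SD is taken from these same shifts, that of sgMTSS1 pool 1 included, so it cannot show whether that pool stands apart. Since each pool was set against the other 4, the shifts are not independent of each other.

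The sgMTSS1 pool 1 was the lowest of the 5 pools in 26 distal genes (35.1%, against 23.1% of all protein-coding genes) and the highest in 10 (13.5%, against 23.9%). The sgMTSS1 pool 3 was the lowest in 3 (4.05%, against 14.0%) and the highest in 17 (23.0%, against 13.9%). In sgMTSS1 pool 2 both counts were 4 (5.41%, against 9.98% and 10.3%). The sgCtrl pool 1 was lowest in 22 (29.7%, against 22.3%) and highest in 19 (25.7%, against 26.7%), and sgCtrl pool 2 lowest in 19 (25.7%, against 30.6%) and highest in 24 (32.4%, against 25.1%).

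As a scale, loss of 1 of 2 copies in 1 of the 4 clones of a pool would lower the level of every distal gene by 0.19 on the log2 scale, in 2 clones by 0.42, in 3 by 0.68, and in all 4 by 1.0, if level followed copy number. The copy number of chromosome 8 in these clones was not measured, and in bulk RNA fewer clones with a change and a smaller change in each, like fewer cells of a type and less RNA per cell, cannot be told apart. The median of sgMTSS1 pool 1 lay between the values for 1 and 2 clones. Its shift relative to the rest of chromosome 8, −0.42, was close to the value for 2 clones. Gains were not put on this scale. The next question was whether the lower level ran through the whole arm beyond the cut.

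**Figure D3:**
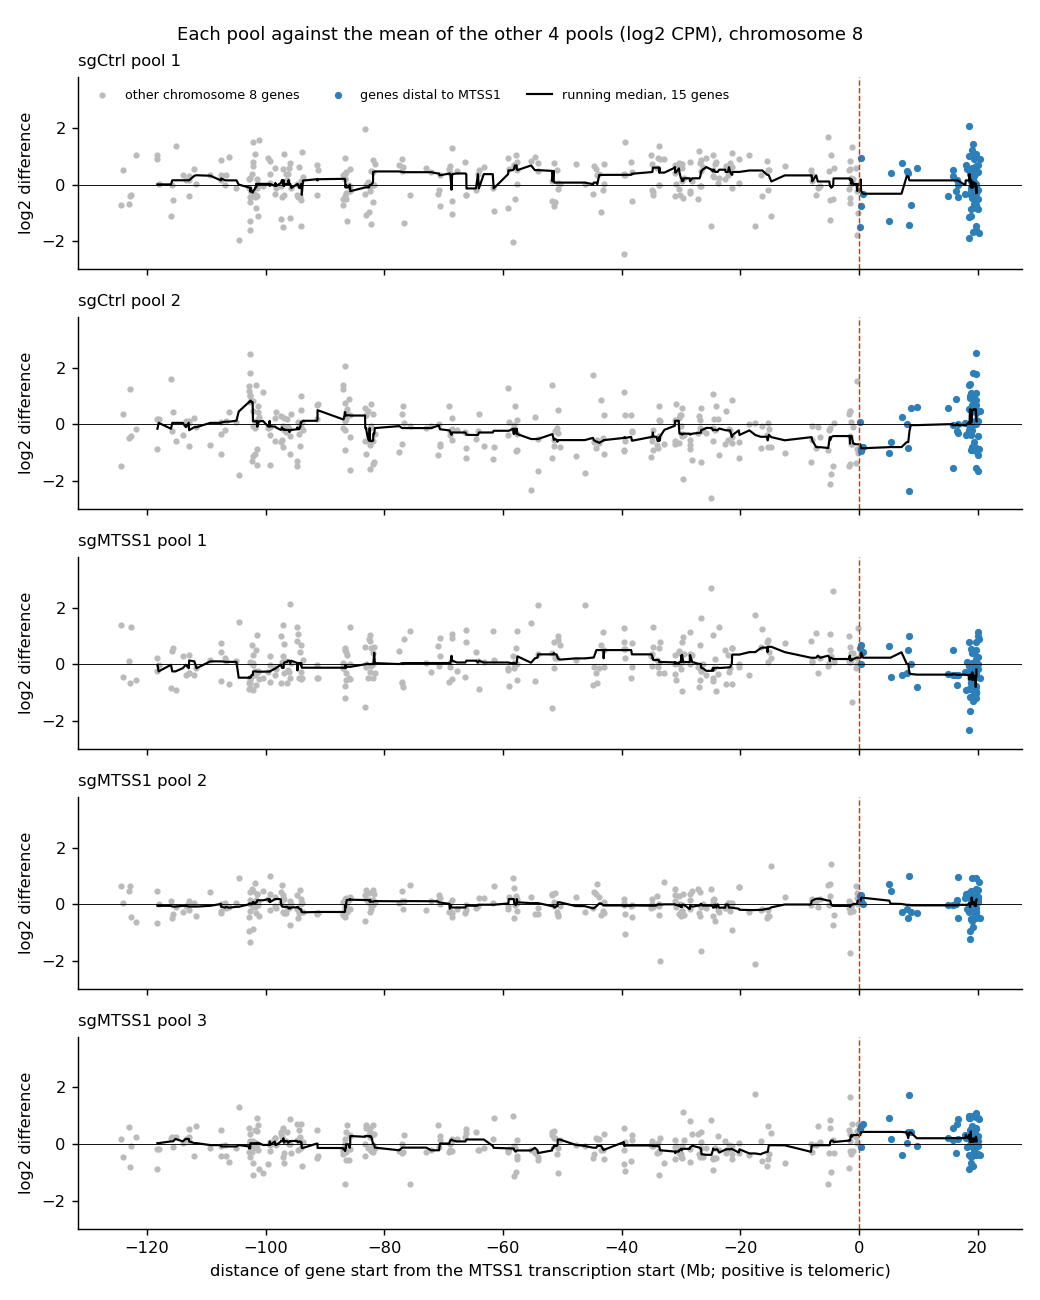
Log2 CPM of each pool minus the mean of the other 4 pools (y axis) for each tested protein-coding gene of chromosome 8, against the distance of its start from the transcription start of *MTSS1* in Mb (x axis, positive is telomeric, dashed line at *MTSS1*), with distal genes in blue and a running median of 15 genes as a line. In sgMTSS1 pool 1 the line stays above 0 across *MTSS1* and over the first several Mb beyond it, and the values below 0 are farther along the arm, with a median of −0.41 for genes beyond 19 Mb.

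The lower level in sgMTSS1 pool 1 was not even along the arm. The 12 distal genes within 10 Mb of *MTSS1* had a median of 0.22 in this pool, with 4 of 12 below 0, beside 0.19 for the 27 genes within 10 Mb on the centromeric side. The median was −0.37 for 9 genes at 10 to 18 Mb (8 below 0), −0.36 for 17 genes at 18 to 19 Mb (13 below 0), and −0.41 for 36 genes beyond 19 Mb (25 below 0). Both signs occurred near the cut and far from it. Within 10 Mb, *NDRG1* was at 1.01 and *CYRIB* at 0.64, where all knockout pools were above sgCtrl, and *ZFAT*, a zinc finger factor, was at −0.82 and *ASAP1*, a regulator of ARF GTPases, at −0.45. Beyond 18 Mb, *GLI4* was at −2.32 and *ZC3H3* at −1.65, while *ZNF251*, a zinc finger protein, was at 1.16 and *COMMD5* at 0.99. *ZFAT*, *ASAP1*, and *ZNF251* were named after their values were seen.

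Since the values near the cut include genes that differed between the groups, sgMTSS1 pool 1 was also set against the other knockout pools alone, a choice made after the data were seen. The median of the distal genes was then −0.31, with 54 of 74 below 0. It was −0.05 within 10 Mb of *MTSS1* (7 of 12 below 0), against 0.20 for the 27 genes on the centromeric side, and −0.43, −0.33, and −0.34 in the windows farther out. With these pools as reference, the genes just beyond the cut thus lay below those just before it, by less than the genes farther out.

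The opposite order was seen in sgCtrl pool 2, with a median of −0.72 within 10 Mb, −0.56 on the centromeric side, and 0.41 beyond 19 Mb. In sgMTSS1 pool 3 the medians were 0.42 within 10 Mb, 0.07 on the centromeric side, and 0.11 beyond 19 Mb. Against the other knockout pools they were 0.21, −0.12, and 0.18. In this pool the genes just beyond the cut thus lay above those just before it, with either reference.

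The base composition of the genes changed along the arm at the same place. The median GC content of the canonical transcript was 43.7% within 10 Mb of *MTSS1*, 56.6% at 10 to 18 Mb, 64.0% at 18 to 19 Mb, and 64.2% beyond 19 Mb. It was 62.5% over all 74 distal genes, against 41.6% for the rest of chromosome 8 and 47.6% for all protein-coding genes. A GC content of 60% or more was found in 45 of the 74 distal genes (60.8%) and in 14.4% of all protein-coding genes. These 45 genes had a median of −0.52 in sgMTSS1 pool 1, the 11 such genes on the rest of chromosome 8 a median of −0.56, and all 1595 such protein-coding genes of the genome a median of −0.38. The 15 distal genes with under 50% GC had a median of 0.02 in that pool, against 0.11 for all protein-coding genes of that class. In sgCtrl pool 2 the same classes were ordered the other way, with 0.51 for the distal genes of high GC content, 0.84 for those on the rest of chromosome 8, and 0.29 for all.

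Over 11078 protein-coding genes, a gene's deviation in a pool and its GC content correlated with Pearson's r of −0.24 in sgMTSS1 pool 1, 0.12 in pool 2, and 0.22 in pool 3, and of −0.17 and 0.14 in sgCtrl pools 1 and 2. These values describe genes of the same libraries, which are not independent replicates. Over the 74 distal genes r was −0.46 in sgMTSS1 pool 1 and 0.36 in sgCtrl pool 2. It was 0.09 in sgCtrl pool 1, −0.12 in sgMTSS1 pool 2, and −0.07 in sgMTSS1 pool 3. In these last pools the sign was opposite to that over all protein-coding genes.

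**Figure D4:**
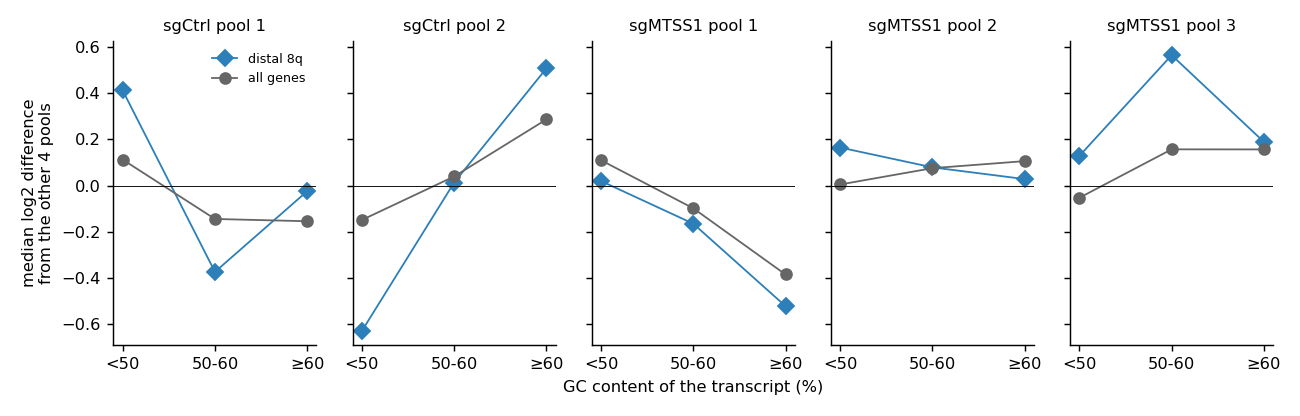
Median log2 difference of a pool from the mean of the other 4 pools (y axis) by class of transcript GC content in percent (x axis), for the distal genes (blue diamonds) and all tested protein-coding genes (gray circles), one panel per pool. In sgMTSS1 pool 1 both lines fall with GC content, to −0.52 and −0.38 at 60% or more.

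With the GC content and transcript length of each gene taken into account by an offset fitted per library over all genes, the median of the distal genes in sgMTSS1 pool 1 was 0.04 in place of −0.36, and the shift relative to the rest of chromosome 8 was −0.06 in place of −0.42. The medians of the windows became 0.33 within 10 Mb, 0.02 at 10 to 18 Mb, 0.00 at 18 to 19 Mb, and 0.05 beyond. On the centromeric side the median was 0.15. With the offset, the medians of autosomal segments in this pool, described below, ran from −0.01 to 0.19, so that 0 is not their middle. Against the other knockout pools alone, with the offset, they were −0.10, −0.07, 0.10, and −0.03, beside 0.16 on the centromeric side, and the shift was −0.05. Among distal and reference genes with at least 60% GC, a comparison chosen after the data were seen, the shift without the offset was 0.03. It rests on 11 reference genes. Against the other knockout pools alone, the medians of this class were −0.49 for the distal and −0.37 for the reference genes. All protein-coding genes of the class were at −0.42. In sgMTSS1 pools 2 and 3 the shift with the offset was −0.03 and 0.08, and in the sgCtrl pools −0.08 and 0.13. The genes of sgMTSS1 pool 3 within 10 Mb of *MTSS1* stayed at a median of 0.38 with the offset, beside 0.19 on the centromeric side, and those of sgCtrl pool 2 at −0.70, beside −0.49. Against the other knockout pools alone, those of sgMTSS1 pool 3 were at 0.26 with the offset, beside 0.01. Why GC content moved with the level in these libraries was not tested.

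The distal genes were also set beside the other segments of the genome, taken as the arms of the autosomes with at least 20 tested genes, 40 segments in all. The distal genes of sgMTSS1 pool 1 had the lowest median of the 40, at −0.36, followed by 19p at −0.25 and 16p at −0.24, and they also had the highest median GC content of the 40. Across the 40 segments, which share the libraries, median and GC content had r = −0.78 in this pool. With the offset, the distal genes ranked 8 from the lowest, at 0.04 within a range of −0.01 to 0.19. In the other pools, before the offset, they ranked 13 and 37 from the lowest in sgCtrl pools 1 and 2, and 26 and 38 in sgMTSS1 pools 2 and 3. With the offset the ranks in these pools were 27, 28, 4, and 33. The median of sgMTSS1 pool 2, at rank 4, was −0.03, from −0.13 to 0.13 over the 40 segments.

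**Figure D5:**
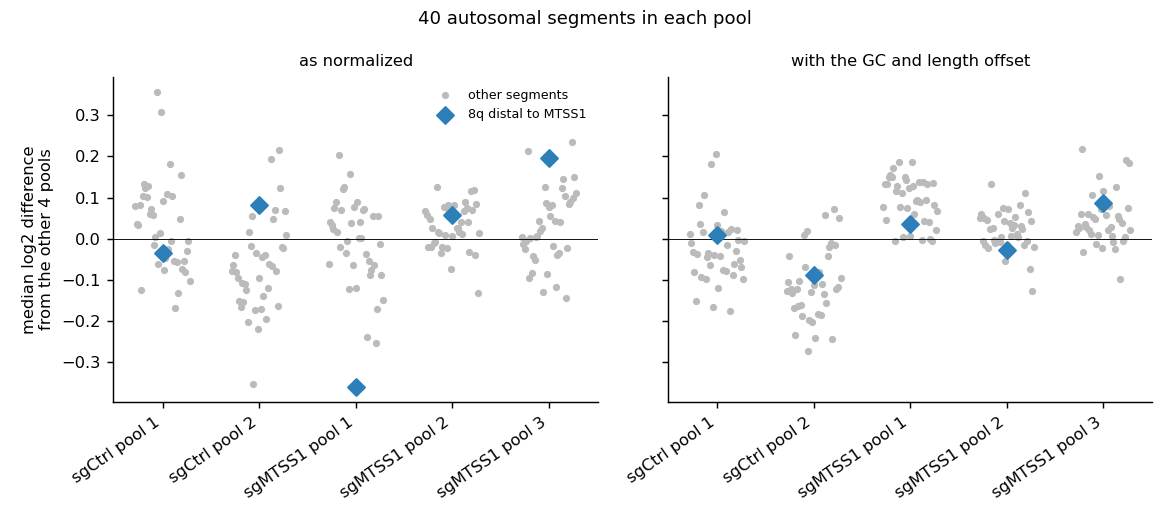
Median log2 difference from the other 4 pools (y axis) of 40 autosomal segments (gray points) and of the distal genes among them (blue diamond) in each pool (x axis), as normalized (left) and with the GC and length offset (right). In sgMTSS1 pool 1 the diamond is lowest on the left, at −0.36, and inside the other segments on the right, at 0.04.

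The 29 distal genes in the table that were not tested had 3 to 37 counts over all 5 libraries, with a median of 7, and 17 of them had at most 10. In 5 of them both sgCtrl pools were at 0 counts. One of these, named after its values were seen, was *FBXL6*, an F-box protein, with 20, 1, and 10 counts in knockout pools 1 to 3. Tested without the filter, none of the 29 was called by edgeR, and 2 had an unadjusted p under 0.05.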

How the data were processed

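RNA of 5 pools of TF-1 clones was sequenced from the 3′ ends of transcripts (QuantSeq). The authors aligned reads to GRCh38 with HISAT2 2.1.0, used SAMtools 1.10 to keep uniquely mapping reads, and deposited the read counts of Ensembl genes as whole numbers that were not normalized. The counting program, annotation release, strand setting, and treatment of duplicates are not given in the sources used here. All 5 columns were used, and groups and pool numbers came from the sample labels.

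Low counts were filtered with filterByExpr (minimum count 10), and the remaining genes were normalized by TMM, and tested with edgeR 4.0.16 in R 4.3.3 (quasi-likelihood, condition as the only term, Benjamini-Hochberg adjustment over 14391 genes). The common biological coefficient of variation was 32.2%. CPM used TMM-scaled library sizes, and log2 CPM a prior count of 2. *MTSS1*, *NDUFB9*, which overlaps it, and the 7 genes left out were in neither gene set. Positions, overlaps, GC content, and length of the canonical transcript came from GENCODE 44. Arms were split at the largest gap between genes, and acrocentric chromosomes were taken whole. The offset for GC content and length was fitted per library with mgcv 1.9.3. Scripts were tested on simulated data, and Python 3.11.15 was used for tables and plots.

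Genes were named if they were called, were among the 5 nearest to *MTSS1*, the 5 nearest to the telomere, or the 10 most abundant, or had one of the 3 largest increases or decreases among genes whose groups did not overlap. Members and lists were chosen with earlier results of these data known. Alternatives were DESeq2 1.42.0, other normalizations, filters, prior counts, and reference genes, a block for the pool number, the offset, libraries thinned to the smallest total, and each pool left out.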

Additional observations from a re-analysis of the deposited data

How the results depend on the processing

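The count of 5 called distal genes was 8 of 73 with DESeq2 (11.0%, against 9.03% of all genes), 8 of 103 with no filter on low counts (7.77%, against 5.03%), 1 where genes overlapping another gene were left out, and 0 to 8 with 1 pool left out. Pools share numbers 1 and 2 across groups, but nothing says that a number marks a shared batch (r = 0.20 and 0.11 between deviations of same-numbered pools). With the pool number as a replicate block 4 were called, without *PARP10*, and over all genes 1094 were called in place of 745.

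The shift of sgMTSS1 pool 1 was −0.064 with the GC and length offset. In comparisons chosen after the data were seen it was 0.034 among genes of at least 60% GC and 0.16 within 10 Mb of *MTSS1*, and that of sgCtrl pool 2 was −0.33 and −0.52. That of sgMTSS1 pool 3 was 0.17 and 0.48. With other pools left out in turn the shifts ranged from −0.46 to −0.13 (sgCtrl pool 1), 0.23 to 0.44 (sgCtrl pool 2), −0.52 to −0.31 (sgMTSS1 pool 1), −0.02 to 0.17 (pool 2), and 0.10 to 0.36 (pool 3). Scaled by library size alone, sgMTSS1 pool 1 was lowest in 40 and highest in 2 distal genes, sgCtrl pool 1 lowest in 13, sgMTSS1 pool 2 lowest in 2, and pool 3 lowest in 1. Leaving out the TMM factors (0.876 in sgMTSS1 pool 1, 1.13 in sgCtrl pool 1) lowers every gene of the former and raises every gene of the latter. The shares of all genes under this scaling were not taken, so these counts cannot show whether the change is particular to the distal genes.

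Directions reversed for *WASHC5* (0.033 with the block, 0.077 with block and offset, −0.72 to 0.82 with 1 pool left out), *ZNF7* (−0.057 by library size, −0.048 without sgCtrl pool 1, the lowest, to 0.23), *ZNF250* (0.13 with the offset, 0.19 with offset and block, 0.10 unfiltered, 0.0052 with the block, −0.36 to 0.39 with 1 pool left out), *LY6E* (−0.45 to 0.24 with 1 pool left out), *AGO2* (0.15 with the offset, 0.090 with offset and block), and *GRINA* (1.38 without sgCtrl pool 2, −1.45 without sgCtrl pool 1). Causes were not tested. With 2 and 3 pools, differences under the spread between pools could not be detected.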
